A study of Mus musculus with 17 samples.

Results

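The 10 megakaryocyte and platelet genes Pf4, Itga2b, Itgb3, Vwf, Gp1bb, Gp9, Gp6, Selp, Cd9 and Zfpm1 were followed in mouse bone marrow cells labelled as hematopoietic stem and progenitor cells (HSPC). These are the precursors that give rise to all blood lineages. The 10 genes were taken by symbol from a table of 35321 genes. All 10 were among the 14920 genes that passed the filter on low counts and entered the tests. Polyadenylated RNA had been sequenced from 17 libraries of HSPC sorted by flow cytometry from wild-type C57BL/6J mice.

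The 5 groups differed in what the mice had received by intraperitoneal injection. Controls received phosphate buffered saline (PBS, 5 libraries, titled Day 0). The other mice received lipopolysaccharide (LPS), a molecule of the outer bacterial envelope that provokes inflammation, alone or combined with an IL-10R blocking antibody, which keeps the cytokine interleukin-10 from its receptor, and marrow was taken at 24 h or 72 h (3 libraries in each of the 4 groups). The 2 LPS groups that also had the antibody are called LPS plus antibody 24 h and LPS plus antibody 72 h. No group received the antibody without LPS. The labels contradict each other on whether the amounts of LPS and antibody were micrograms or milligrams, so no amount is used here. They do not say whether each library came from a separate mouse, so p-values measure the spread between these libraries, which may be partly technical.

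A megakaryocyte is the large marrow cell that sheds platelets. Its lineage is driven by the hormone thrombopoietin and by transcription factors such as Gata1 with its cofactor Zfpm1 (also called FOG-1), Fli1, Runx1 and Nfe2. Part of the stem cell pool already carries megakaryocyte transcripts, among them Vwf and Itga2b, and inflammation is known to draw such cells into rapid platelet production. Platelets stick to injured vessel walls through the glycoprotein Ib-IX-V receptor, which binds von Willebrand factor (Vwf), and through the collagen receptor Gp6. They then aggregate through the integrin formed by Itga2b and Itgb3, and release granules that hold Pf4, Vwf and Selp.

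At 24 h, no member was called higher, and the calls were all decreases. Gp9 was the only member called lower after LPS alone, by 2.58-fold, where 37.6% of all genes tested were called. Pf4, Vwf, Gp9 and Gp6 were called lower after LPS plus antibody, where 24.2% of all genes were called. The decreases were 6.85-fold for Pf4, 3.00-fold for Vwf, 3.13-fold for Gp9 and, by counting error alone, at least 12.4-fold for Gp6. The Gp6 bound leaves out the spread between PBS libraries. The 95% interval of the fitted Gp6 log2 change was -10.90 to -2.45. With 1 library left out at a time (8 fits a comparison), the Gp9 call held in 1 fit in each comparison. After LPS plus antibody, the call held in 6 fits for Pf4, 4 for Vwf and 3 for Gp6. At 72 h no member was called against PBS, where 0.0201% of all genes were called after LPS and 13.2% after LPS plus antibody. Most members varied several-fold between libraries of the same antibody-treated group, and some did so without the antibody. In PBS the highest library exceeded the lowest by 6.1-fold for Pf4 and 5.26-fold for Gp1bb. In LPS 72 h it did so by 5.51-fold for Gp1bb, 3.76-fold for Gp9, 3.44-fold for Itga2b and 3.03-fold for Pf4. Apart from Gp6, which had libraries at 0, the rest reached at most 2.54-fold in PBS and 2.6-fold in LPS 72 h. After LPS plus antibody at 72 h the highest library exceeded the lowest by 21.8-fold for Pf4, 14.5-fold for Gp1bb, 10.5-fold for Itga2b, 9.14-fold for Itgb3, 7.38-fold for Gp9, 6.34-fold for Zfpm1 and 4.01-fold for Vwf, against 1.83-fold for Selp and 1.42-fold for Cd9. A gene was called when its adjusted p was below 0.05 in edgeR's quasi-likelihood test with Benjamini-Hochberg adjustment over all genes tested. In these bulk libraries, fewer cells of a type and less RNA per cell cannot be told apart.

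Stretches just before the transcription start are shown for 3 members, Pf4, Gp6 and Selp. They were the members with a long enough stretch outside GENCODE exons and the RefSeq span of the gene, and were not chosen by level. Pf4 and Gp6 were both called lower after LPS plus antibody at 24 h, and Selp was not. The stretches come from RefSeq on build GRCm38.p6 and run 5′ to 3′ on the strand of the gene. They stop at the first base in a GENCODE exon or in the RefSeq span of the gene. The Pf4 stretch is chr5:90772285-90772434 (+ strand) and the Selp stretch is chr1:164115114-164115263 (+ strand), each ending at the base before the start. The Gp6 stretch, chr7:4397852-4397894 (- strand), spans bases 150 to 108 before the start. Capitals mark the core letters bound by ETS factors such as Fli1 (GGAAG, or CTTCC when read on the other strand) in Pf4 and Selp, and those bound by GATA factors (AGATAA) in Gp6.
Pf4: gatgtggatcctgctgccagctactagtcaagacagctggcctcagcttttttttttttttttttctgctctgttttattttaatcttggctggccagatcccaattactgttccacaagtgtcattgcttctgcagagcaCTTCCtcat
Gp6: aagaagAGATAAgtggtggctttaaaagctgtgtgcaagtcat
Selp: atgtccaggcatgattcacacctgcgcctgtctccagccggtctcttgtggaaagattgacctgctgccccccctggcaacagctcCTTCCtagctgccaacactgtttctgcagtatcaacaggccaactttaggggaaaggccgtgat

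Of the 10 members, 8 had a promoter in the RefSeq table (Itgb3 and Vwf did not). In the 150 bases before the start given in that table, read on both strands, GGAAG was found in 6 of the 8, against 47.7% of 32851 promoters. AGATAA or TGATAA was found in 1 of the 8, Gp6, against 9.65% of promoters, and TGTGGT, the letters bound by Runx factors, in 0 of the 8, against 8.4%. Of these 8 windows, those of Pf4 and Selp lay wholly outside GENCODE exons and outside the RefSeq span of their gene. Those of Gp9 and Zfpm1 lay inside the RefSeq span of their own gene, as did 107 bases of that of Gp6. The windows of Gp1bb and Cd9 lay in GENCODE exons, as did 91 bases of that of Itga2b. No motif overlapped another in the printed stretches. Matching letters describe these windows only and do not show that a factor binds there.

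The depth was 10516722 to 16006001 counts per library. Levels are read counts scaled to a common library size (CPM) after scaling each library with its TMM factor (trimmed mean of M-values). The factors ran from 0.948 to 1.12 except in LPS 24 h replicate 1 (0.799). All 10 stem and progenitor markers examined (among them Kit, Cd34, Flt3 and Procr) were detected in every library, with summed levels of 1678.6 to 2436.1 CPM in PBS and 1060.8 to 1194.2 CPM in LPS 24 h. The antibody-treated libraries stood apart from each other in red cell transcripts. The summed level of 13 erythroid markers was 2814.9, 657.3 and 121.1 CPM in replicates 1 to 3 of LPS plus antibody 24 h, and 1707.5, 326.5 and 65.6 CPM in those of LPS plus antibody 72 h. It was 469 to 760 CPM in PBS, 560 to 1166.4 CPM in LPS 24 h and 69.7 to 359 CPM in LPS 72 h. In LPS plus antibody 24 h replicate 3, the defining markers Hba-a1, Hba-a2, Rhag and Slc4a1 were at 0, and in LPS plus antibody 72 h replicate 3 the markers at 0 included Hba-a1, Hba-a2, Hbb-bs and Slc4a1.

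To compare genes with each other, PBS levels were divided by the exonic length of each gene in the GENCODE annotation of GRCm38. Pf4 was highest at 36.7 CPM per kb (8.88 to 54.1 over the 5 PBS libraries), followed by Cd9 at 20.5, Itga2b at 16 and Zfpm1 at 15.9 CPM per kb. A middle tier held Gp9 at 7.53, Itgb3 at 5.81 and Selp at 5.50 CPM per kb. Vwf, with 16064 bases of exon, stood at 1.80, Gp1bb at 0.912 and Gp6 at 0.159 CPM per kb. The gene Septin5 covers 91.1% of the Gp1bb exons on the same strand. How shared reads were counted is not given, so the value and place of Gp1bb are uncertain. The ranges of neighbours in this order overlapped for Pf4 and Cd9, Itga2b and Zfpm1, Gp9 and Itgb3, Itgb3 and Selp, and Vwf and Gp1bb. They did not overlap between Cd9 and Itga2b, Zfpm1 and Gp9, Selp and Vwf, or Gp1bb and Gp6. The lowest Pf4 value, 8.88 CPM per kb, also lay below the ranges of Itga2b (14.5 to 17) and Zfpm1 (13 to 20.7). So by its mean the platelet granule chemokine ranked at the top of this order in unstimulated HSPC, and the platelet collagen receptor at its bottom.

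**Figure D1:**
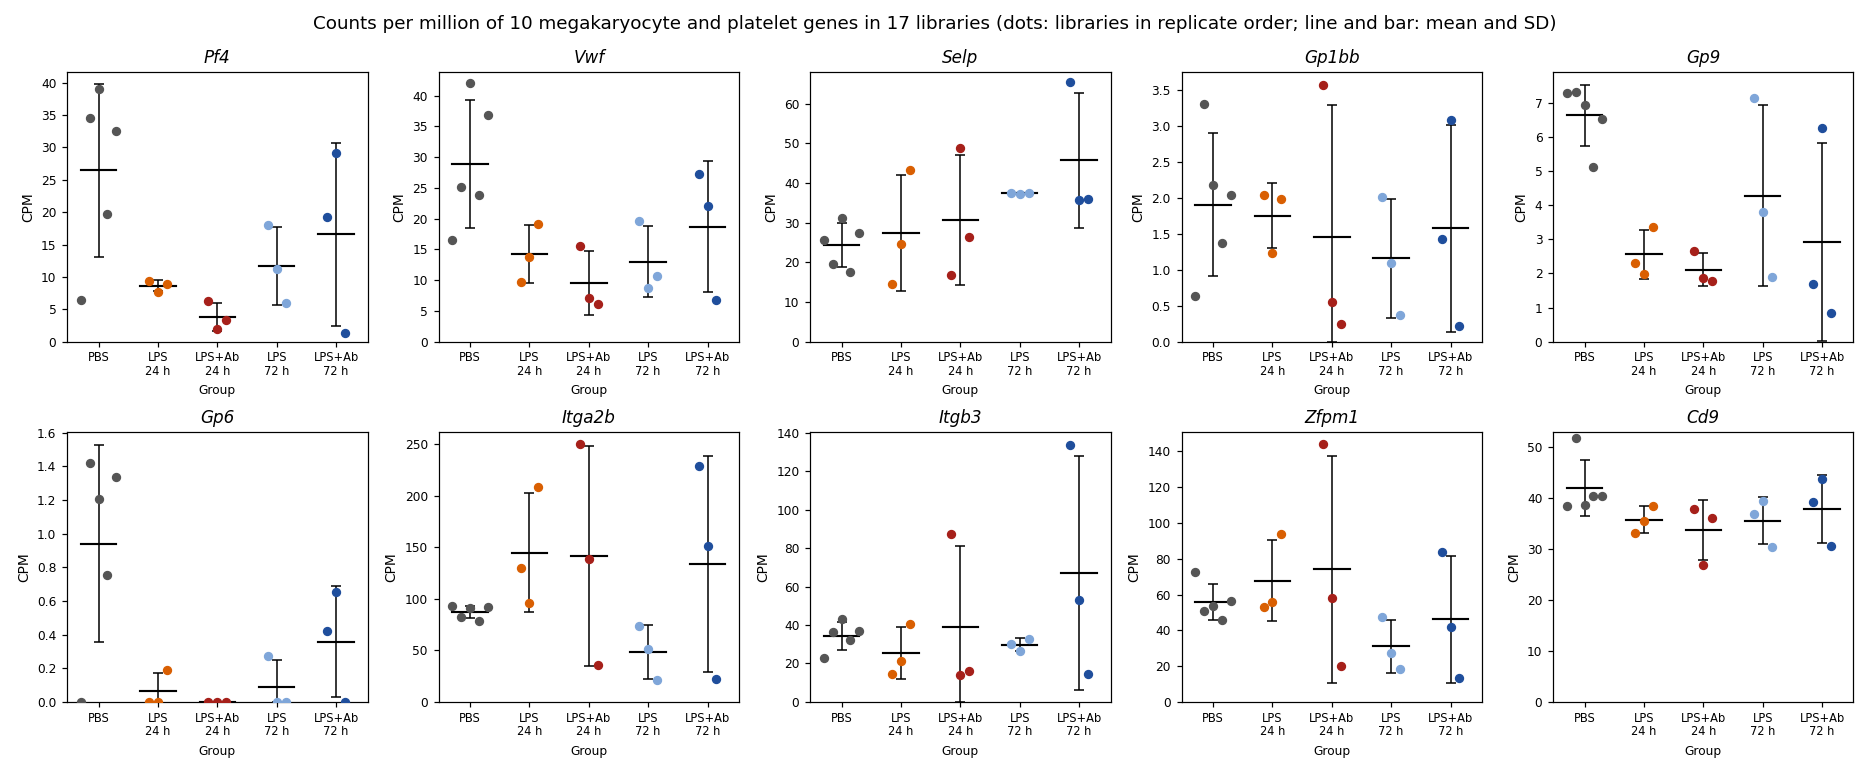
Level of each of the 10 genes in CPM (vertical axis, starting at 0) by group (horizontal axis); dots are libraries in replicate order, the line is the group mean and the bar the SD, drawn no lower than 0. In LPS plus antibody 24 h and LPS plus antibody 72 h, Itga2b, Itgb3 and Zfpm1 are highest in replicate 1, while all 3 Gp9 dots of LPS 24 h and of LPS plus antibody 24 h lie below the PBS dots.

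Among the granule genes, Pf4 (chr5:90772435-90773383, + strand), the chemokine platelet factor 4, was measured at 6.40, 34.6, 39.0, 19.7 and 32.5 CPM in PBS replicates 1 to 5. PBS replicate 1 was thus far below the other 4 controls. Pf4 was at 9.36, 7.69 and 8.86 CPM in LPS 24 h, and at 6.23, 1.95 and 3.33 CPM in LPS plus antibody 24 h. All 6 of these libraries were below PBS replicates 2 to 5, and the 3 antibody-treated ones were below all 5. Levels at 72 h were 18.0, 11.2 and 5.92 CPM after LPS and 19.2, 29.2 and 1.34 CPM after LPS plus antibody, and both sets overlapped PBS. Against PBS, the log2 change at 24 h was -1.61 (SE 0.715, adjusted p = 0.0869) after LPS and -2.78 (SE 0.771, adjusted p = 0.0199) after LPS plus antibody. Only the second passed the test, and the difference between these groups, a log2 change of -1.16 (95% interval -2.84 to 0.52), did not (adjusted p = 1), although their libraries did not overlap. Without PBS replicate 1 both changes passed, at -1.86 (adjusted p = 0.0438) and -3.01 (adjusted p = 0.0114). The Pf4 call after LPS plus antibody was lost without replicate 2 (adjusted p = 0.0934) or replicate 3 (adjusted p = 0.0566) of that group.

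Vwf (chr6:125546774-125686679, + strand) encodes the adhesive protein that tethers platelets to collagen. It was at 16.5, 25.1, 42.0, 23.9 and 36.9 CPM in PBS, at 9.73, 13.7 and 19.1 CPM in LPS 24 h and at 15.6, 7.02 and 6.18 CPM in LPS plus antibody 24 h. The antibody-treated libraries lay below all controls, and LPS 24 h replicate 3 overlapped them. At 72 h Vwf was at 19.7, 8.78 and 10.6 CPM after LPS and at 27.2, 22.0 and 6.78 CPM after LPS plus antibody, overlapping PBS in both. The log2 change was -1.02 (SE 0.451, adjusted p = 0.0867) after LPS at 24 h and -1.58 (SE 0.466, adjusted p = 0.0251) after LPS plus antibody at 24 h, and only the second passed. At 72 h it was -1.15 (SE 0.456, adjusted p = 0.372) after LPS and -0.63 (SE 0.444, adjusted p = 0.346) after LPS plus antibody. The Vwf call after LPS plus antibody at 24 h was lost without PBS replicate 3 (adjusted p = 0.0575) or 5 (0.0567) and without replicate 2 (0.114) or 3 (0.0878) of the treated group. Vwf is also made by endothelial cells. The summed level of 10 endothelial markers was 219 to 282 CPM in PBS, 102 to 135 CPM in LPS 24 h, 121 to 174 CPM in LPS plus antibody 24 h, 256 to 308 CPM in LPS 72 h and 143 to 178 CPM in LPS plus antibody 72 h. All 10 were detected in 16 of 17 libraries (Stab2 was at 0 in LPS plus antibody 72 h replicate 1). The summed level of the 10 stem and progenitor markers was also lower in LPS 24 h (1060.8 to 1194.2 CPM) than in PBS (1678.6 to 2436.1 CPM). It was 1763.5 to 2297.7 CPM in LPS 72 h. Whether the endothelial markers came from endothelial cells was not tested, nor was the part of endothelial RNA in the Vwf values.

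Selp (chr1:164115264-164150026, + strand), or P-selectin, is the granule membrane protein that activated platelets display to bind leukocytes, and endothelial cells also make it. It was at 25.6, 19.7, 31.1, 17.7 and 27.4 CPM in PBS. At 24 h it spread widely, at 14.5, 24.6 and 43.3 CPM after LPS and 16.9, 48.8 and 26.4 CPM after LPS plus antibody. At 72 h it was at 37.5, 37.3 and 37.4 CPM after LPS and at 65.4, 35.7 and 36.04 CPM after LPS plus antibody, and all 6 libraries were above every control. The log2 change at 72 h was 0.62 (SE 0.343, adjusted p = 0.506) after LPS and 0.91 (SE 0.341, adjusted p = 0.0815) after LPS plus antibody, and neither passed. The change after LPS plus antibody at 72 h did pass in DESeq2's Wald test (adjusted p = 0.0477) and in a fit to those groups alone (adjusted p = 0.0449). The noncoding genes Gm16548 and Gm16587 lie on the other strand across 9.93% and 4.21% of the Selp exons, and without known strandedness their reads cannot be told apart from those of Selp.

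In the glycoprotein Ib-IX-V receptor, Gp9 (chr6:87778072-87779768, + strand) is the glycoprotein IX subunit. It was steady in the controls at 7.28, 7.32, 6.94, 5.13 and 6.52 CPM (82 to 121 counts). It was at 2.32, 1.99 and 3.38 CPM in LPS 24 h and at 2.66, 1.87 and 1.79 CPM in LPS plus antibody 24 h. All 6 libraries at 24 h were below every control. The log2 change was -1.37 (SE 0.51, adjusted p = 0.0458) after LPS and -1.65 (SE 0.521, adjusted p = 0.0329) after LPS plus antibody, and both passed. At 72 h Gp9 was at 7.14, 3.80 and 1.90 CPM after LPS and at 1.68, 6.26 and 0.848 CPM after LPS plus antibody, with 1 library of each group within the range of the controls. The changes at 72 h were -0.64 (SE 0.492, adjusted p = 0.629) and -1.20 (SE 0.509, adjusted p = 0.119). The call after LPS at 24 h was lost without the filter on low counts (adjusted p = 0.0564) and held in 1 of 8 fits that left out a library, the one without PBS replicate 4, with adjusted p from 0.0484 to 0.143. It was lost without PBS replicate 1, 2, 3 or 5 and without LPS 24 h replicate 1, 2 or 3, while the log2 change stayed between -1.62 and -1.21. The call after LPS plus antibody was likewise held only without PBS replicate 4 and lost without each of the other 7 libraries, with adjusted p from 0.0363 to 0.119 and log2 changes from -1.85 to -1.51.

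Gp1bb (chr16:18620317-18622403, - strand) is the beta chain of glycoprotein Ib. It was at 0.628, 3.30, 2.18, 1.38 and 2.03 CPM in PBS, 10 to 42 counts a library. It was at 2.04, 1.24 and 1.98 CPM in LPS 24 h, 3.57, 0.546 and 0.244 CPM in LPS plus antibody 24 h, 2.02, 1.10 and 0.365 CPM in LPS 72 h and 1.43, 3.08 and 0.212 CPM in LPS plus antibody 72 h. Every group overlapped PBS, and in LPS plus antibody 24 h the highest library exceeded the lowest by 14.6-fold. The largest change against PBS was -0.72 (SE 0.821, adjusted p = 0.753) in LPS 72 h. Septin5 (Sept5 in the annotation) covers 91.1% of the Gp1bb exons on the same strand, and how reads shared by both were counted is not given in the sources used here, so the Gp1bb counts are uncertain. The other subunits were not called in any comparison. Gp1ba, which carries the binding site for von Willebrand factor, was at 6.37 ± 1.35 CPM (SD, n = 5) in PBS and 4.22 ± 2.202 CPM (SD, n = 3) in LPS 24 h, a log2 change of -0.59 (SE 0.509, adjusted p = 0.384). Gp5, the glycoprotein V subunit, was at 7.67 ± 0.738 CPM (SD, n = 5) in PBS and 8.38 ± 1.48 CPM (SD, n = 3) in LPS 24 h, a log2 change of 0.13 (SE 0.66, adjusted p = 0.895). In LPS 72 h Gp1ba and Gp5 both lay below every control. The log2 changes there were -1.19 (adjusted p = 0.418) for Gp1ba and -1.31 (adjusted p = 0.5) for Gp5. In LPS plus antibody 24 h Gp5 lay below every control (-0.78, adjusted p = 0.423) and Gp1ba overlapped PBS. Both overlapped PBS in LPS plus antibody 72 h. So Gp9 passed the test after LPS at 24 h and the 3 other subunits did not; whether their changes differed from that of Gp9 was not tested.

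Gp6 (chr7:4363965-4397744, - strand), the platelet collagen receptor that signals through the Fc receptor gamma chain Fcer1g, was close to the detection limit. It had 0, 18, 21, 12 and 19 counts in PBS, or 0, 1.42, 1.20, 0.751 and 1.33 CPM. It had 0, 0 and 3 counts in LPS 24 h, 0 in each library of LPS plus antibody 24 h, 3, 0 and 0 counts in LPS 72 h and 5, 7 and 0 counts in LPS plus antibody 72 h. PBS replicate 1 was at 0 like most LPS-treated libraries, and the other 4 controls were above all 12 of them. Taking 3 counts over the group as the most that a count of 0 allows, LPS plus antibody 24 h was below 0.0761 CPM, at least 12.4-fold lower than the PBS mean of 0.941 CPM, and this change passed the test (adjusted p = 0.0275). The change after LPS at 24 h was just outside the threshold (adjusted p = 0.0503). Without PBS replicate 1 the adjusted p was 0.0112 after LPS plus antibody and 0.0172 after LPS. The call after LPS plus antibody was lost without PBS replicate 2 (0.0508) or 5 (0.0528), and without replicate 1 (0.062), 2 (0.0869) or 3 (0.0587) of the treated group. These bounds cover counting error only and not the spread between PBS libraries. The fitted log2 change after LPS plus antibody at 24 h had a 95% interval of -10.90 to -2.45.

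**Figure D2:**
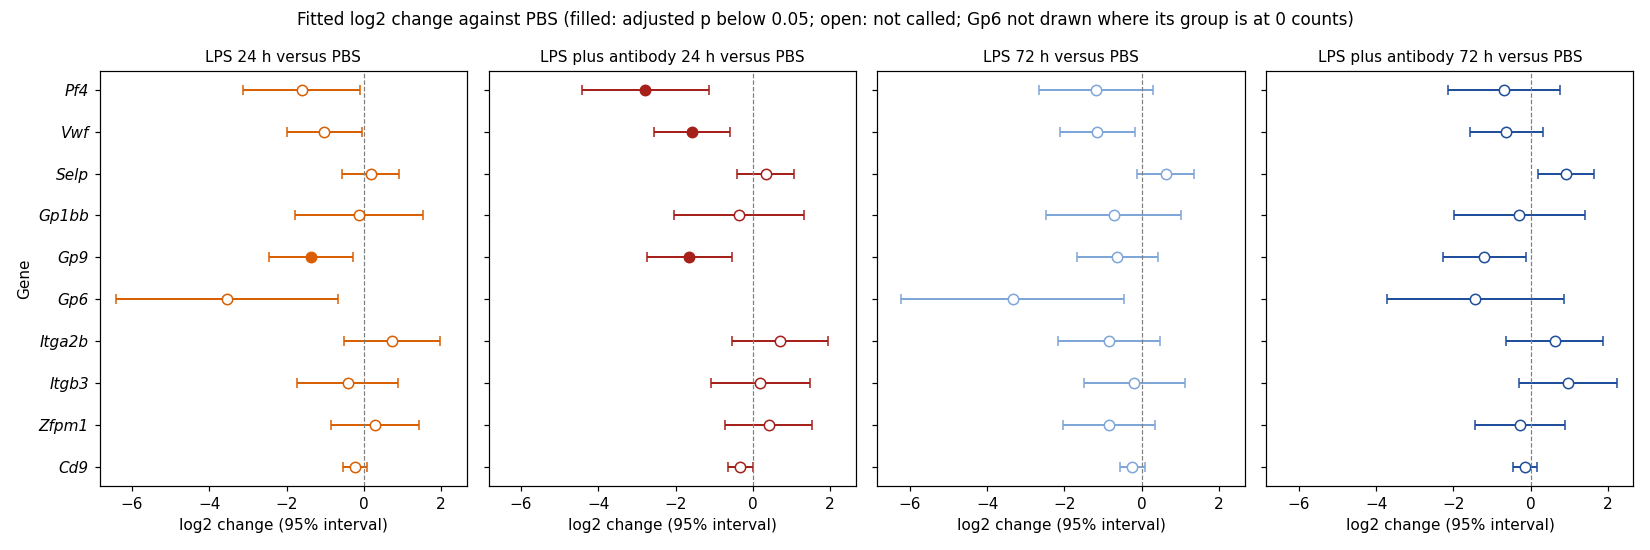
Fitted log2 change against PBS (horizontal axis, point with its 95% interval) of each gene (rows) in the 4 LPS groups (panels); filled points passed an adjusted p of 0.05, and Gp6 is not drawn for LPS plus antibody 24 h, where all its libraries had 0 counts. Gp9 at -1.37 is the only filled point after LPS at 24 h, Pf4, Vwf and Gp9 are filled after LPS plus antibody at 24 h, and no point is filled at 72 h.

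The fibrinogen receptor of platelets pairs Itga2b (integrin alpha IIb, or CD41) with Itgb3 (integrin beta 3). Itga2b (chr11:102453297-102470122, - strand) was tight in the controls, at 92.8, 82.6, 90.9, 79.0 and 91.7 CPM. It was at 129.7, 96.2 and 208.9 CPM in LPS 24 h, all above the controls, and at 73.6, 51.8 and 21.4 CPM in LPS 72 h, all below them. In the antibody-treated groups it fanned out on both sides of PBS, at 250.5, 138.5 and 36.1 CPM at 24 h and 229.1, 151.2 and 21.8 CPM at 72 h. The log2 change against PBS was 0.73 (SE 0.588, adjusted p = 0.346) after LPS at 24 h and -0.84 (SE 0.62, adjusted p = 0.611) after LPS at 72 h. From 24 h to 72 h after LPS it was -1.57 (SE 0.686, adjusted p = 0.0937), with libraries that did not overlap. The antibody effect at 72 h was 1.45 (SE 0.685, 95% interval 0.00 to 2.91, adjusted p = 0.154). None of these passed. The rise after LPS at 24 h passed in the fit blocked on the replicate number (0.64, adjusted p = 0.0443) and in a fit to those groups alone (0.73, adjusted p = 0.0181). The decrease from 24 h to 72 h passed in the fit to those groups alone (-1.56, adjusted p = 0.0318), and the antibody effect at 72 h passed without LPS plus antibody 72 h replicate 3 (1.96, adjusted p = 0.0396).

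Itgb3 (chr11:104608000-104670476, + strand) was at 23.0, 36.2, 43.4, 32.2 and 36.7 CPM in PBS. It was at 14.6, 21.3 and 40.5 CPM in LPS 24 h and at 30.2, 26.4 and 32.96 CPM in LPS 72 h, and both sets overlapped PBS. Itgb3 in LPS plus antibody 24 h was at 87.5, 14.0 and 15.9 CPM and in LPS plus antibody 72 h at 133.7, 53.2 and 14.6 CPM. Replicate 1 of both antibody-treated groups was thus above every control, and the other libraries fell on both sides. The changes against PBS ran from -0.42 (SE 0.619, adjusted p = 0.614) in LPS 24 h to 0.97 (SE 0.595, adjusted p = 0.277) in LPS plus antibody 72 h. Without replicate 1, the change in LPS plus antibody 24 h turned from 0.19 to -1.19 (adjusted p = 0.157) and that in LPS plus antibody 72 h went from 0.97 to 0.01.

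Zfpm1 (chr8:122282141-122337251, + strand), the cofactor through which Gata1 acts in both megakaryocytes and red cell precursors, was at 72.5, 50.7, 53.6, 45.6 and 56.4 CPM in PBS. It was at 53.3, 56.1 and 93.8 CPM in LPS 24 h and at 47.3, 27.6 and 18.2 CPM in LPS 72 h, where 2 of 3 libraries were below every control. With the antibody it was at 144.1, 57.9 and 20.1 CPM at 24 h and 83.8, 42.0 and 13.2 CPM at 72 h. The changes against PBS were 0.28 (SE 0.534, adjusted p = 0.705), -0.85 (SE 0.56, adjusted p = 0.571), 0.41 (SE 0.533, adjusted p = 0.6) and -0.27 (SE 0.545, adjusted p = 0.773), in the order LPS 24 h, LPS 72 h, LPS plus antibody 24 h and LPS plus antibody 72 h. Gata1 itself was at 17.5 ± 6.93 CPM (SD, n = 5) in PBS and 50.01 ± 17.1 CPM (SD, n = 3) in LPS 24 h, without overlap, a log2 change of 1.51 (SE 0.864, adjusted p = 0.181). It was at 127.6, 38.5 and 5.44 CPM in LPS plus antibody 24 h.

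Itga2b and the summed erythroid markers ranked the libraries in the same order within each of the 4 LPS-treated groups. For Zfpm1 the order was the same in 3 of the 4, LPS 24 h being the exception. In LPS plus antibody, replicate 1 exceeded replicate 3 by 6.94-fold at 24 h and 10.5-fold at 72 h for Itga2b, by 7.18-fold and 6.34-fold for Zfpm1, by 5.50-fold and 9.14-fold for Itgb3 and by 23.4-fold and 21.5-fold for Gata1. The same ratios were 14.6-fold and 6.74-fold for Gp1bb, 1.87-fold and 14.3-fold for Pf4 and 2.53-fold and 4.01-fold for Vwf. They were 1.49-fold and 1.98-fold for Gp9, 1.05-fold and 1.28-fold for Cd9 and 0.639-fold and 1.81-fold for Selp. Gp6 was at 0 in replicate 3 of both groups. The summed level of 8 mast cell and basophil markers moved the same way, at 820, 430 and 65.8 CPM in LPS plus antibody 24 h and 365, 197 and 50.2 CPM in LPS plus antibody 72 h (91.2 to 350 CPM in PBS). The part of either lineage in the values of the members was not tested.

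**Figure D3:**
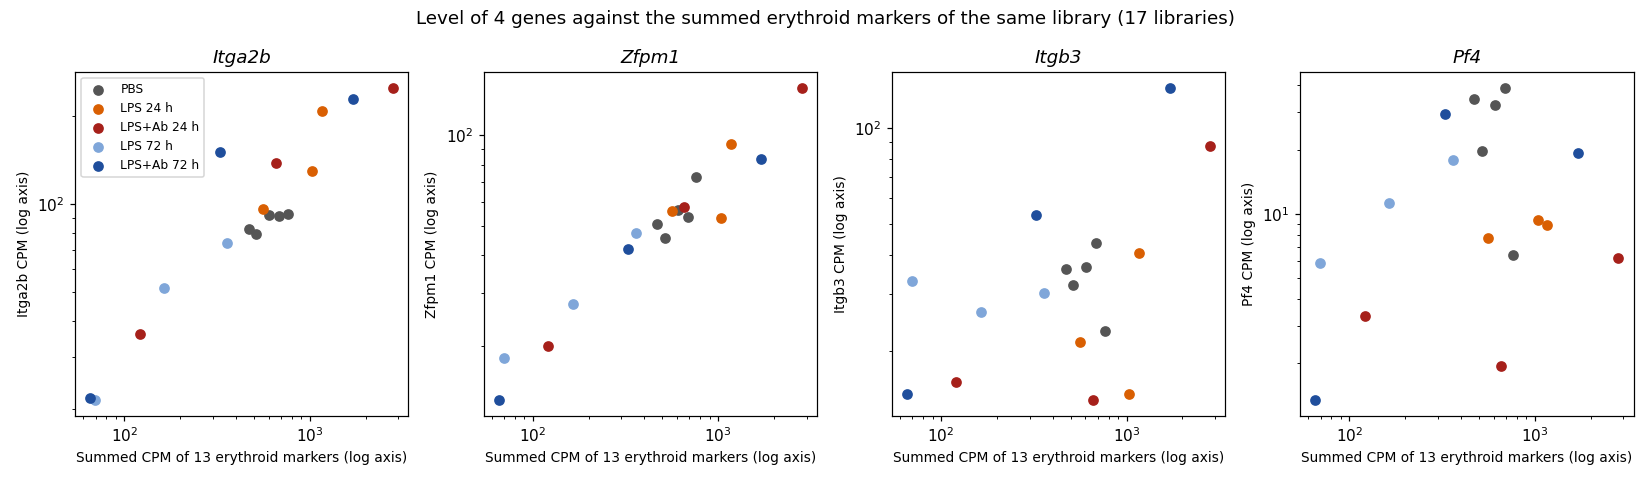
Level of Itga2b, Zfpm1, Itgb3 and Pf4 (CPM, vertical log axis) against the summed CPM of 13 erythroid markers in the same library (horizontal log axis), 1 dot per library, coloured by group. Within each antibody-treated group Itga2b and Zfpm1 are higher where the erythroid sum is higher. Pf4 in LPS plus antibody 24 h is highest (6.23 CPM) at the highest sum (2814.9 CPM) and lowest (1.95 CPM) at 657.3 CPM. In LPS plus antibody 72 h Pf4 is highest (29.2 CPM) at a sum of 326.5 CPM and lowest (1.34 CPM) at 65.6 CPM.

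Cd9 (chr6:125460266-125494791, - strand), a tetraspanin of the platelet and megakaryocyte surface that many other cells also carry, varied least. It was at 38.5, 51.7, 38.7, 40.4 and 40.3 CPM in PBS, and the 12 LPS-treated libraries ran from 26.9 to 43.7 CPM. PBS replicate 2 was above all of the others. The changes against PBS lay between -0.32 (SE 0.152, adjusted p = 0.137) in LPS plus antibody 24 h, where the libraries did not overlap PBS, and -0.15 (SE 0.151, adjusted p = 0.532) in LPS plus antibody 72 h. The 95% interval after LPS at 24 h, -0.55 to 0.09, was the narrowest among the members in that comparison. Cd9 shares 10.7% of its exons with Gm26728 on the other strand.

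Counts of members called are set here beside the share of all genes called. After LPS at 24 h, 1 of 10 members was called (0 higher, 1 lower) against 37.6% of all 14920 genes. The members' median log2 change was -0.33, against -0.03 over all genes, and 3 of 10 changes were positive. After LPS plus antibody at 24 h, 4 of 10 were called, all lower, against 24.2% of all genes, with a median of -0.34 against -0.00 whether Gp6 was taken at its fitted value or at its bound. Only LPS 24 h and PBS met the criterion for pairing of same-numbered libraries (given with the processing), which does not show that pairs exist. There a fit blocked on the replicate number, made on replicates 1 to 3, called 3 members, against 33.3% of all genes in that fit. These were Gp9 (-1.50, adjusted p = 0.0077), Vwf (-0.92, adjusted p = 0.00759) and, in the other direction, Itga2b (0.64, adjusted p = 0.0443). A fit to LPS 24 h and PBS alone called 5 members, against 42.1% of all genes. There Pf4 (adjusted p = 0.022), Vwf (0.0269), Gp6 (0.0349) and Itga2b (0.0181) were called beside Gp9. Both 24 h comparisons share the PBS libraries, so they do not bear on each other independently.

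Against PBS at 72 h, 0 of 10 members were called after LPS, where 0.0201% of all genes (3 genes) were called. With edgeR, 2 members, Vwf and Gp6, had an unadjusted p below 0.05, as had 1702 genes in all, and DESeq2 called 0 members. The members' median was -0.78 against -0.03 over all genes, and 1 of 10 changes, that of Selp, was positive. After LPS plus antibody at 72 h, 0 of 10 were called by edgeR against 13.2% of all genes. In edgeR 2 (Gp9 and Selp) had an unadjusted p below 0.05, as had 31.7% of all genes. DESeq2 called 1, Selp (its share of all genes is given with the dependence on processing). The median was -0.28 against -0.00. Gp9 was also called by edgeR without LPS plus antibody 72 h replicate 2 (-2.37, adjusted p = 0.00997), the library with the group's highest Gp9.

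The antibody effect, LPS plus antibody against LPS alone, was called for 0 of 10 members at 24 h. There 0% of all genes were called, 0 members and 273 genes had an unadjusted p below 0.05 in edgeR, and DESeq2 called 0 members and 1 gene. The members' median was -0.16. At 72 h the antibody effect was called by edgeR for 0 of 10 members against 15.1% of all genes (DESeq2 called 0 members). In edgeR the unadjusted p was below 0.05 for 1 member, Itga2b, and for 32.5% of all genes. The changes were positive for 9 of 10 members, Gp9 (-0.56) being the exception, with a median of 0.51 against 0.01 over all genes. In fits that left out 1 library, 7 to 10 were positive. The intervals were wide, from -1.10 to 2.11 for Pf4 and -0.53 to 1.57 for Vwf, so changes of either sign remain possible for these genes. Leaving out replicate 2 of the antibody-treated group called Gp9 (-1.72, adjusted p = 0.0333).

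Between the times, 0 of 10 members were called from 24 h to 72 h after LPS by edgeR, against 31.1% of all genes. Itga2b alone of the members had an unadjusted p below 0.05, against 42.2% of all genes, and DESeq2 called 0 members. A fit to those groups alone called Itga2b (-1.56, adjusted p = 0.0318) and Zfpm1 (-1.12, adjusted p = 0.0487), both lower at 72 h. From 24 h to 72 h after LPS plus antibody, 0 of 10 members and 0% of all genes were called by edgeR. There 2 members, Pf4 (4.28-fold higher, SE of the log2 change 0.801, adjusted p = 0.918) and Gp6, and 634 genes had an unadjusted p below 0.05, and DESeq2 called 0 members and 2 genes. The antibody by time interaction, the antibody effect at 72 h minus that at 24 h, was called by edgeR for 0 of 10 members against 6.37% of all genes. For the members 0 had an unadjusted p below 0.05, against 24.2% of all genes. DESeq2 called 0 members, and their median log2 change was 0.61 against 0.01.

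Other genes of the lineage, in lists that do not include the members, were read from the same fit. Of 14 other platelet receptors, 0 were called higher and 6 lower after LPS at 24 h, against 37.6% of all genes called either way. The greatest decreases were those of P2ry12, an ADP receptor and drug target (2.79 ± 2.12 CPM in PBS, n = 5, and 0.18 ± 0.211 CPM in LPS 24 h, n = 3, log2 change -3.80, adjusted p = 0.00967), and Tbxa2r, the thromboxane receptor (22.4 ± 4.87 and 2.94 ± 1.86 CPM, -2.92, adjusted p = 0.00208). Of 18 granule, release and cytoskeleton genes, 1 was higher and 5 were lower. Tuba4a, a tubulin, rose (0.84, adjusted p = 0.0205), and Thbs1, the granule adhesive protein thrombospondin, fell (-4.83, adjusted p = 0.00871). Thbs1 varied in PBS (51.1 ± 57.5 CPM, n = 5), where the summed level of 12 monocyte and macrophage markers also varied, from 657 to 3050.4 CPM (407 to 779 CPM in LPS 24 h); the part of such cells was not tested.

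Ppbp, which encodes another platelet granule chemokine and lies 2372 bases from Pf4, had 2, 190, 121, 38 and 132 counts in PBS replicates 1 to 5. PBS replicate 1 was again the low control, as for Pf4 and Gp6. Ppbp was at 0.278, 0.549 and 0.892 CPM in LPS 24 h, against 6.73 ± 5.84 CPM in PBS (SD, n = 5), and fell (log2 change -3.49, SE 1.32, adjusted p = 0.0479). After LPS plus antibody at 24 h it had 4, 0 and 3 counts and was also called lower (adjusted p = 0.0268).

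Of 10 genes of thrombopoietin signalling, 0 were higher and 3 lower after LPS at 24 h, against 37.6% of all genes called either way. The inhibitory adaptor Sh2b3 (-0.70, adjusted p = 0.00119) was among the 3. Among 15 transcription factors of the lineage, 1 was higher, Srf (0.58, adjusted p = 0.0285), and 6 were lower, led by Mecom (-2.63, adjusted p = 0.00104) and Meis1 (-1.30, adjusted p = 0.00127), which are also stem cell regulators. Nfe2, needed for platelet release, was at 165.2 ± 7.19 CPM (SD, n = 5) in PBS and 144.9 ± 24.1 CPM (SD, n = 3) in LPS 24 h, a change of -0.19 (SE 0.166, adjusted p = 0.385).

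**Figure D4:**
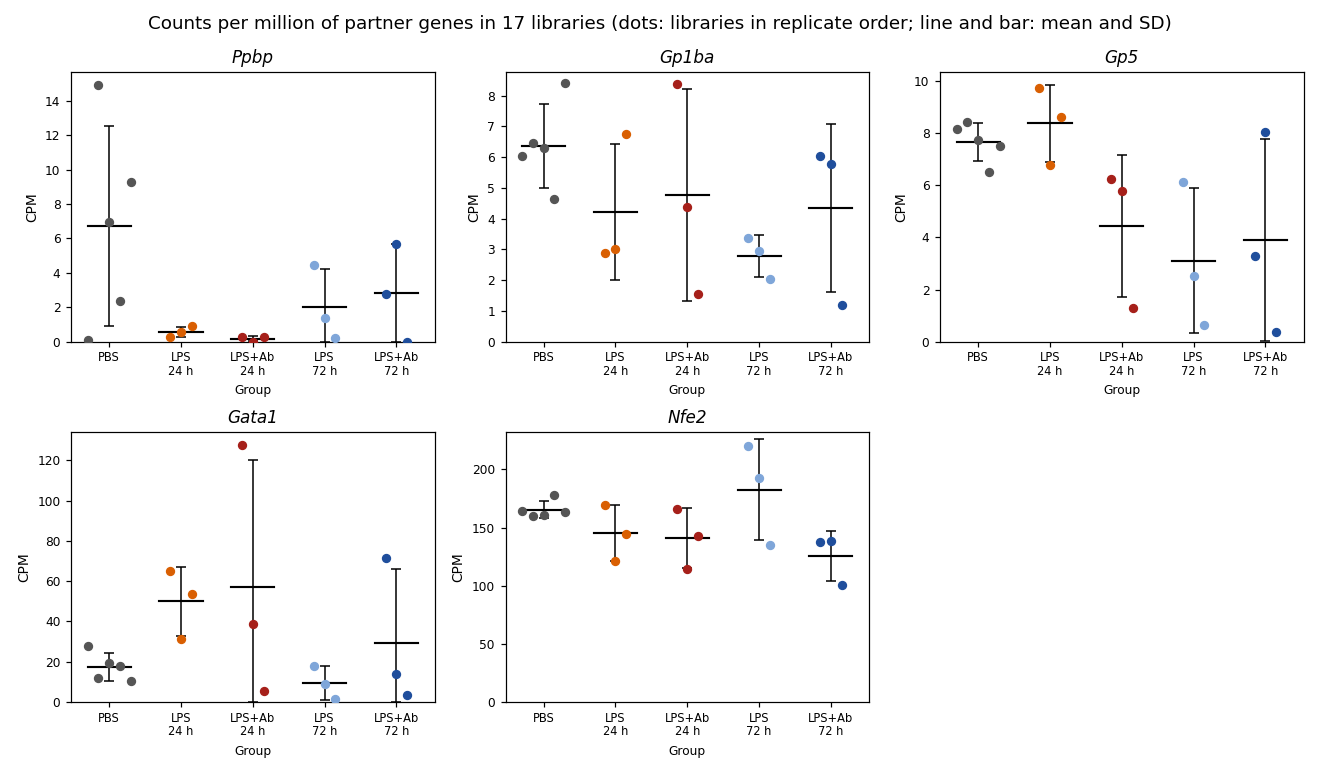
Level of 5 partner genes in CPM (vertical axis, starting at 0) by group (horizontal axis); dots are libraries in replicate order, the line is the group mean and the bar the SD, drawn no lower than 0. All Gata1 dots of LPS 24 h (31.4 to 64.9 CPM) lie above those of PBS (10.2 to 27.8 CPM), and Gata1 in LPS plus antibody 24 h spans 5.44 to 127.6 CPM.

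The median log2 changes after LPS at 24 h were -0.67 for the other receptors, -0.71 for the granule genes, -0.25 for the factors and -0.24 for thrombopoietin signalling, against -0.03 for all genes. In LPS plus antibody 24 h, 5 receptors, 4 granule genes, 6 factors and 2 signalling genes were lower and 0 of each list higher. The share of all genes called either way there was 24.2%. After LPS at 72 h, 0 genes of these 4 lists were called either way, against 0.0201% of all genes. After LPS plus antibody at 72 h, 1 receptor, 0 granule genes, 3 factors and 0 signalling genes were lower and 0 higher, against 13.2% of all genes. For the antibody effect at 72 h, Ptger3, a prostaglandin receptor, rose (0.82, adjusted p = 0.0399) and Tbxa2r (-2.09, adjusted p = 0.0311) and Fcer1g (-1.17, adjusted p = 0.0496), the signalling partner of Gp6, fell among the receptors. The factor Mrtfa fell (-0.67, adjusted p = 0.0221), the phosphatase Ptpn11 rose (0.62, adjusted p = 0.0183), and 0 granule genes were called.

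For LPS at 24 h against PBS, where 37.6% of all genes were called either way, marker lists of other cells were also measured. Of these, 10 of 12 monocyte and macrophage markers, 7 of 10 endothelial markers, 6 of 10 stem and progenitor markers (Mecom is among them), 4 of 8 B lymphoid and plasma cell markers, 3 of 9 T and NK cell markers and 1 of 13 erythroid markers were lower, and 0 of each were higher. Of 7 mast cell and basophil markers tested, 1 was higher and 0 lower, and of 10 granulocyte markers 0 were called. The greatest decreases were those of Mertk (-6.89) and C1qc (-5.25) among the macrophage markers, Stab2 (-4.92) and Emcn (-2.63) among the endothelial, Mecom (-2.63) and Flt3 (-2.45) among the stem and progenitor, Jchain (-4.59) and Mzb1 (-3.45) among the plasma cell and Cd4 (-3.87) and Cd8a (-3.39) among the T cell markers. The erythroid decrease was that of Hbb-bt (-1.63) and the mast cell increase that of Ms4a2 (1.92). The antibody effect at 72 h was called for Csf1r (-1.11), Klrb1c (-1.45), Plvap (-1.80), Tie1 (-0.97), Cd34 (-0.78) and Ms4a2 (3.01) among the 2 greatest of each list in each direction.

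For each member, the genes with the most similar pattern were found by Pearson's r of log2 CPM over the 17 libraries, which share their treatment groups and depth. Pf4 was most like Ppbp (r = 0.946) and Tubb1 (0.917), the platelet tubulin. Gp6 was most like Slc6a4 (0.962), the serotonin transporter of platelets, and Ppbp (0.924). Itga2b was most like 4933431E20Rik (0.971) and Gata2 (0.965), a GATA factor of progenitors, and Zfpm1 was most like Car2 (0.968), an erythroid carbonic anhydrase that is among the 13 erythroid markers, and Shank3 (0.967). Itgb3 was most like Ank (0.946) and D430040D24Rik (0.931), Gp9 like 2010300C02Rik (0.937) and Mtss2 (0.93), and Vwf like Pls1 (0.9) and Timp3 (0.894). The genes most like Selp were its overlapping antisense partners Gm16548 (0.966) and Gm16587 (0.948), the gene most like Cd9 was its overlapping partner Gm26728 (0.893), ahead of Rbbp9 (0.892), and Gp1bb was most like Cavin2 (0.886), a membrane coat protein abundant in platelets, and its overlapping neighbour Septin5 (0.86), so shared reads can enter these values.

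Among the members themselves, Itga2b and Zfpm1 had the highest r (0.931), followed by Pf4 and Vwf (0.88) and Pf4 and Gp6 (0.86). Selp had an r between -0.294 and 0.211 with each of the other 9. Within groups, LPS plus antibody 72 h replicate 3 was the lowest of its group for 9 of 10 members. PBS replicate 1 was the lowest of the controls for 6 of 10 members and the highest for 2. Replicate 1 was the highest of its group for 8 of 10 members in LPS plus antibody 24 h and for 8 of 10 in LPS 72 h, and replicate 3 for 8 of 10 in LPS 24 h. The 10 genes summed to 266 to 349 CPM in PBS, 258 to 458 CPM in LPS 24 h, 159 to 273 CPM in LPS 72 h, 146 to 565 CPM in LPS plus antibody 24 h and 126 to 601 CPM in LPS plus antibody 72 h.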

How the data were processed

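The authors deposited 1 table of raw counts per gene symbol for the 17 libraries; 0 columns were left unmatched to a label. Per the submitters' processing notes, HISAT2 2.2.0, Subread, featureCounts 2.1.1, R 4.3.2 and DESeq2 were used with build GRCm38. The annotation, the strandedness and how reads matching more than 1 gene were counted are not given in the sources used here, so counts of overlapping genes are uncertain.

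Groups came from the sample titles. Counts were analysed in R 4.3.3 with edgeR 4.0.16: filterByExpr (minimum count 10, minimum total 15), TMM scaling, and the quasi-likelihood test with group means fitted to all 17 libraries together, adjusted by Benjamini-Hochberg over all 14920 genes in each of 9 comparisons. Standard errors are the log2 change divided by the root of F. CPM used TMM-scaled totals, and the prior count for r was 2. DESeq2 1.42.0, other scalings, no filter, the groups compared alone, a replicate block and leaving out each library were alternatives.

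Replicate numbers come from the titles, which do not say what they share. Deviations of same-numbered libraries from their group means correlated above 0.1 in all 3 pairs only for LPS 24 h and PBS (r 0.152 to 0.179). That comparison was therefore also read with the block, as an alternative fit, since such low r do not show a pairing. Between LPS plus antibody 24 h and 72 h, r was 0.729 for replicate 1, -0.0176 for replicate 2 and 0.693 for replicate 3. The criterion was thus not met there, although 2 of these r were higher.

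The members and gene lists were chosen with earlier results of these data known. Named are all members, from each list the 2 genes with the greatest called increase and decrease after LPS at 24 h and for the antibody effect at 72 h, Gp1ba, Gp5, Ppbp, Gata1 and Nfe2, and the 2 genes most like each member. Genes that this rule names but the text does not give are not reported here. Promoters are from RefSeq (GRCm38.p6).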

Additional observations from a re-analysis of the deposited data

Results flagged for a closer look

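Cd9 in PBS replicate 2 was at 51.7 CPM, apart from the other 4 controls, which lay between 38.5 and 40.4 CPM. The gap to the next control was 0.852 of the whole range, above Dixon's 95% critical value of 0.71 for 5 libraries. It was 1 of 10 sets of PBS values examined this way, and chance marks about 1 in 20. That library also had the highest summed level of monocyte and macrophage markers, 3050.4 CPM, and the part of such cells in its Cd9 value was not tested.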

How the results depend on the processing

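After LPS at 24 h, where 1 member was called, upper-quartile scaling called 2 (against 37% of all genes), DESeq2's Wald test 2 (40.8%), dropping the filter 0 (23.7%), fitting the groups compared alone 5 (42.1%) and the replicate block 3 (33.3%). After LPS plus antibody at 24 h, where 4 were called, the replicate block called 0 members (and 0% of all genes), and the same 6 libraries without the block called 1 (9.74%). That unblocked fit was added after seeing the data. Against PBS at 72 h, DESeq2 (19.6% of all genes) and the fit to the groups alone (16.1%) each called 1 member, Selp, after LPS plus antibody. From 24 h to 72 h after LPS, the fit to the groups alone called 2 (27.4%) and the replicate block 1, Itga2b (24.6%). Of 58 alternative counts other than those that left out 1 library at a time, 47 stayed within 1.5 times the main count and the 11 given here did not; the cause was not tested.

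Leaving out 1 library at a time gave 0 to 2 members after LPS at 24 h. Without PBS replicate 1, Pf4 and Gp6 were called in place of Gp9, and without PBS replicate 2, 3 or 5 or any LPS 24 h library none was. It gave 0 to 4 after LPS plus antibody at 24 h: 2 without PBS replicate 2, PBS replicate 3 or treated replicate 1, 1 without PBS replicate 5, and 0 without treated replicate 2 or 3. It gave 0 to 1 after LPS plus antibody at 72 h (Gp9 without treated replicate 2) and 0 to 1 for the antibody effect at 72 h (Gp9 without treated replicate 2, Itga2b without treated replicate 3). No group was left with 1 library.

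Of the 90 log2 changes (10 members in 9 comparisons), 36 turned sign in at least 1 fit that left out a library, and 0 of these had been called. The other alternatives turned 5, all among those 36. With the replicate block, those after LPS plus antibody at 24 h became -0.39 for Itgb3 and -0.06 for Zfpm1, and the antibody effect became -0.18 for Zfpm1 at 24 h and -0.01 for Pf4 at 72 h. The change of Cd9 from 24 h to 72 h after LPS went from -0.01 to at most 0.11. Of the 36, 11 belong to changes given above. They spanned -0.34 to 0.16 for Gp1bb, -0.30 to 0.50 for Selp and -0.02 to 0.44 for Zfpm1 after LPS at 24 h. Their span after LPS plus antibody at 24 h was -1.19 to 0.63 for Itgb3, -2.23 to 0.16 for Gp1bb, -0.15 to 0.63 for Selp and -0.51 to 0.89 for Zfpm1. At 72 h after LPS plus antibody it was -1.20 to 0.25 for Gp1bb and -0.99 to 0.17 for Zfpm1, and for the antibody effect at 72 h -1.72 to 0.03 for Gp9 and -0.15 to 1.05 for Pf4.

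Outside LPS 24 h and PBS, same-numbered libraries did not meet the criterion for pairing, so the block is reported only here. In LPS 24 h against PBS it changed the calls of Vwf and Itga2b and of no other member tested; Gp6 did not pass the filter in that fit. Depth limits Gp6 and Gp1bb most, with 0 to 21 and 3 to 51 counts a library, where a count of 0 allows up to 0.172 to 0.28 CPM. Groups of 3 to 5 libraries leave wide intervals, and uncalled changes are not shown to be absent.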
